A study of Mus musculus with 16 samples.

Results

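Of the 16 libraries of the study, 8 came from wild-type motoneurons, 4 from the axonal and 4 from the somatodendritic compartment, and the levels of all genes were compared between these 2 compartments. The libraries were chosen by the genotype and compartment in the sample titles. The cells were Hnrnpr +/+ motoneurons from the lumbar spinal cord of day 13 mouse embryos, enriched by panning with an antibody against the neurotrophin receptor p75NTR. They were cultured in microfluidic devices whose narrow channels let axons, but not cell bodies, reach a second chamber, so that the RNA of axons can be lysed apart from that of cell bodies and dendrites. Both compartments contained CNTF at 5 ng/ml, and the axonal compartment alone contained BDNF at 20 ng/ml, so the compartments also differed in this factor. Axonal cDNA was amplified with more PCR cycles than somatodendritic cDNA. The remaining 8 libraries, 4 axonal and 4 somatodendritic, came from Hnrnpr-/- motoneurons, whose CRISPR/Cas9 deletion removes several exons of the gene for the RNA-binding protein hnRNP R. They served as a second set in which no library is shared with the wild type. The study describes the replicates as biological ones.

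Axons of motoneurons reach far from the nucleus, and a part of their proteins is made on site from mRNAs that RNA-binding proteins carry along microtubules. mRNAs for ribosomal proteins, mitochondrial proteins and actin are known from axons of many neuron types. Proteins of the synaptic vesicle cycle and ion channels are mostly made in the cell body and carried outward by kinesins, although their mRNAs can also be found in neurites.

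Before the comparison, the libraries were checked against their labels. Each library held 22024923 to 34864151 counts, and 22700 to 26072 genes had at least 1 count. Levels are given as CPM, the reads of a gene scaled to a common library size by TMM factors, which assumes that most genes keep the same share of a library. Defining markers of the named cell type were low in the somatodendritic libraries. Chat, the enzyme that makes acetylcholine, had 24, 29, 22 and 14 counts in somatodendritic replicates 1 to 4 and 0, 0, 2 and 0 in the axonal ones. Mnx1, a motoneuron transcription factor, had 0 counts in every library, and Slc18a3, the vesicular acetylcholine transporter, had 303, 169, 279 and 83 somatodendritic counts. Slc17a6, the glutamate transporter of excitatory spinal neurons, had 14137, 10520, 10805 and 10470 counts in the same libraries, Gad1, the enzyme that makes GABA, 10152, 7791, 7824 and 7470, and Slc6a5, the glycine transporter, 9692, 7755, 7495 and 4589. Chat, Mnx1 and Slc18a3 were thus low or at 0, while these genes of other spinal neurons had many more counts. Not every member of the cholinergic motoneuron list was low. Its 22 genes summed to 473 to 614 CPM in somatodendritic libraries, and Ache, which encodes acetylcholinesterase, had 8770, 5110, 6862 and 4782 counts there.

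Genes of fibroblasts, smooth muscle and dividing cells were higher in the axonal libraries. Of 29 fibroblast and meningeal genes, 21 were higher in axons and 0 lower, and their summed level was 3936 to 26250 CPM in axonal and 379 to 1631 CPM in somatodendritic libraries. The 18 pericyte and smooth muscle genes summed to 1973 to 14180 CPM against 115 to 612 CPM. The 32 genes of cell proliferation, all of which were called higher in axons, summed to 1394 to 5367 CPM against 629 to 914 CPM. The 20 microglial genes summed to 71 to 437.5 CPM in axonal, highest in replicate 1, and 56.2 to 135 CPM in somatodendritic libraries, and the 18 endothelial and blood cell genes to 59 to 277.9 CPM, highest in replicate 4, against 10.5 to 21.3 CPM, without overlap. Of these lists, Siglech, Cdh5, Tek, Tie1 and Cldn5 had at most 3 counts in every axonal library. Twist1 was the single member of the fibroblast list with at most 3 counts in every somatodendritic library. How far these genes share in the differences below was not tested. In such bulk samples, fewer cells of a type cannot be told apart from less RNA per cell. Axonal replicate 3 had the lowest summed level of 272 synaptic, channel, receptor and adhesion genes of neurons, at 3500 CPM against 7445 to 8855 CPM in the other axonal libraries, and axonal replicate 2 had 1.88% of its counts on mitochondrial rRNA and tRNA genes against 0.148% to 0.201% in the others.

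The compartments differed widely. Of 18679 genes tested with edgeR's quasi-likelihood test, 5450 (29.2%) were higher in axons and 5000 (26.8%) lower at an adjusted p under 0.05. The 4 axonal libraries lay above all 4 somatodendritic libraries in 4904 genes (26.3%) and below all of them in 5264 (28.2%). A test against a 2-fold difference (glmTreat) called 2248 genes higher (12%) and 1949 lower (10.4%), 4197 in all, and 2657 in all without somatodendritic replicate 2. The median log2 fold difference, axonal over somatodendritic, of all genes was 0.07, and library totals without TMM factors shifted it by 0.126. The axonal libraries differed more among themselves. Spearman's rho across genes, which are not independent replicates, was 0.909 to 0.966 between axonal libraries, 0.982 to 0.99 between somatodendritic libraries, and 0.746 to 0.893 between the compartments, and the common dispersion was 0.271 in axons against 0.0391. In the Hnrnpr-/- libraries, 5483 of 18690 genes (29.3%) were higher in axons and 4744 (25.4%) lower. Of 10312 genes called in the wild type and tested there, 10292 (99.81%) had the same direction and 8545 were called in the same direction, which was 82.86% of the wild-type calls and 84.55% of the 10106 Hnrnpr-/- calls. None was called in the opposite direction. A test of the difference in compartment effect between the genotypes, fitted over all 16 libraries, called 0 of 19964 genes in edgeR at an adjusted p under 0.05, with 265 at an unadjusted p under 0.05, and no other tool was run on it.

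**Figure D1:**
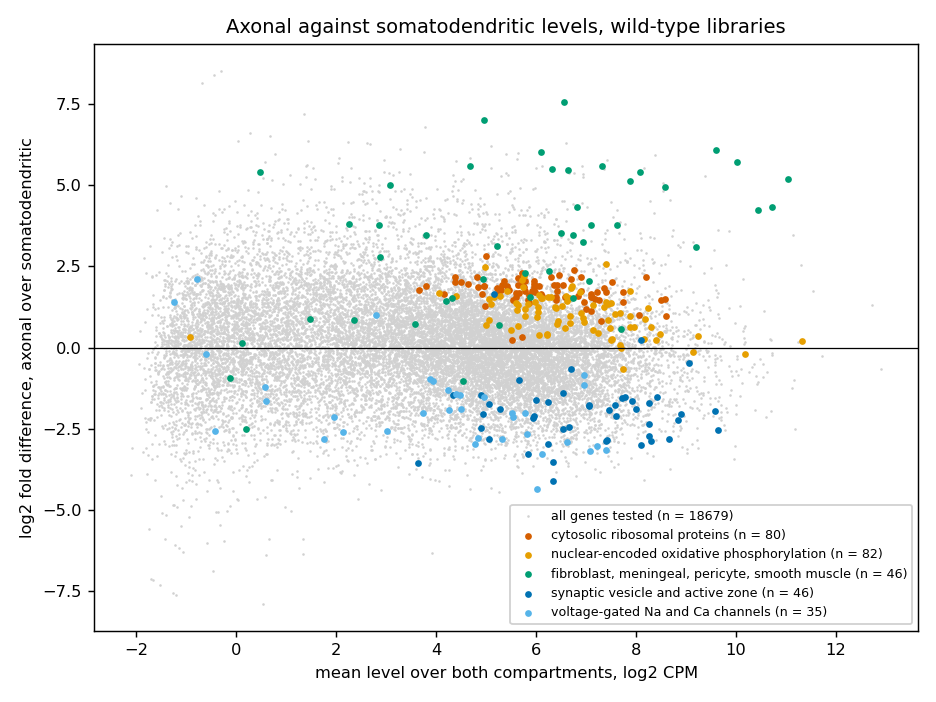
Log2 fold difference of each of the 18679 genes tested, axonal over somatodendritic, against the log2 of its mean CPM in the 8 wild-type libraries, with 5 groups of genes in colour. Ribosomal protein and oxidative phosphorylation genes lie mostly above 0, synaptic and channel genes mostly below 0, and the genes of fibroblasts, pericytes and smooth muscle reach the highest values.

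Among the 15 highest-ranking protein-coding mRNAs of the axonal libraries, when ranked by CPM per kilobase of exon, were Actb, Ftl1, Tuba1a, Ckb, Fabp7, Atp5b, Acta2, Ppia, Actg1, Tmsb4x, Sparc, Ubb, Dbi and Eno1. Actb (β-actin, chr5:142888870-142892509 in GRCm39) was at 7081, 5114, 17891 and 8227 CPM in axonal replicates 1 to 4 and at 3919, 3442, 4003 and 3974 CPM in somatodendritic replicates 1 to 4. All 4 axonal libraries were higher, replicate 3 by the most, and the log2 fold difference was 1.32 ± 0.35 (SE, n = 4 against 4; edgeR adjusted p = 0.011). Ftl1, the light chain of the iron store ferritin, was at 3702, 4230.5, 3985 and 5401 CPM in axons and 833, 719, 711 and 695 CPM in the somatodendritic compartment, and the axonal libraries differed little among themselves. Its log2 fold difference was 2.55 ± 0.18 (edgeR adjusted p = 0.00013). The brain creatine kinase Ckb rose by 1.74 on the log2 scale in axons, the fatty acid carrier Fabp7 by 2.12, the acyl-CoA-binding Dbi by 2.67, the actin-sequestering Tmsb4x by 1.77, the prolyl isomerase Ppia by 0.92 and the glycolytic enolase Eno1 by 1.14. Fabp7 is a radial glia gene, and Acta2 and Sparc, which are treated below, are genes of smooth muscle and fibroblasts. Tuba1a, an α-tubulin, led the somatodendritic ranking and ranked just after Ftl1 in axons, at 6238, 6046, 5907 and 5482 CPM against 9622, 9389.8, 10109 and 8317 CPM, which was 1.58-fold lower in axons (edgeR adjusted p = 0.00421). The ubiquitin gene Ubb (log2 fold difference 0.26), Actg1 (0.18) and Atp5b (0.21) passed no test. Among the 10 highest of the somatodendritic ranking were, after Tuba1a and Actb, Tubb2a, Calm2, Atp5b, Actg1, Tuba1b and Tubb2b. The difference of the calmodulin gene Calm2 (-0.50) and of Tuba1b (-0.34) was not called, but Calm2 was called lower without axonal replicate 2 (-0.76) and Tuba1b without axonal replicate 3 (-0.44).

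Genes of the cytosolic ribosome were higher in axons almost without exception. Of 80 genes, 78 rose, 0 fell and 68 exceeded a 2-fold difference, against 29.2% and 12% of all genes in those calls, and the median log2 fold difference was 1.75 against 0.07. The genes summed to 9401, 11310, 15530 and 8437 CPM in axonal and to 3250 to 4055 CPM in somatodendritic libraries. As a share of counts this was 1.16% ± 0.302 (SD, n = 4) against 0.352% ± 0.0401, with no overlap between the compartments. Such shares of a list are given without a test, since the lists were chosen with results known. Rpl39, a short protein at the exit tunnel, had the largest difference at 23.2, 123, 52.1 and 26.2 against 7.19, 6.08, 6.11 and 12.2 CPM, a log2 fold difference of 2.83 ± 0.55 (SE; edgeR adjusted p = 0.00249). Axonal replicate 2 was highest there, and without it the difference was 2.09. The member with the highest CPM, Rpsa of the small subunit, was at 517, 653, 693 and 407 against 219, 192, 205 and 186 CPM and rose by 1.50 (edgeR adjusted p = 0.000451). Rps15a (0.24 ± 0.21) and Rpl22 (0.33 ± 0.16) were the members not called, Rpl22 being called without axonal replicate 4 (0.43). Their exons, 5136 and 2497 bases in all, were among the longest of the list, whose median was 827 bases. Across the 80 genes, Spearman's rho between exon length and log2 fold difference was -0.634. Here and below, the largest and smallest differences within a list are taken over members of at least 5 CPM in the higher compartment. Reads shared with pseudogenes of these genes were counted as fractions, so single members are uncertain.

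Many ribosomal protein mRNAs begin with a C followed by a run of pyrimidines, the 5′ terminal oligopyrimidine tract that ties their translation to mTOR. The 30 bases around the annotated transcription start (15 before it and 15 from it, RefSeq, GRCm38.p6, gene strand) are shown for 3 members of this list and the elongation factor gene Eef1a1, which rose and have a pyrimidine run there, and for Rps15a, which has one and was not called. Capitals mark the longest run of 8 or more bases that are each C or T.
Rpl39: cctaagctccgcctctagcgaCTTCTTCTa
Rpl35a: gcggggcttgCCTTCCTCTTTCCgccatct
Rps27: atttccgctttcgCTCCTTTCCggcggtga
Rps15a: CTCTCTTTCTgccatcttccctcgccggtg
Eef1a1: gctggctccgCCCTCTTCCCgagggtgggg
These windows lie at chrX:37085208-37085237 (Rpl39, minus strand), chr16:33056467-33056496 (Rpl35a, plus), chr3:90213634-90213663 (Rps27, minus), chr7:118116133-118116162 (Rps15a, minus) and chr9:78481710-78481739 (Eef1a1, minus). In Rpl35a, Rps27 and Eef1a1 the run spanned the annotated start, in Rpl39 it began at base 7 after it, and in Rps15a the longest run lay before it while a shorter one, which also has 8 bases or more, spanned it. Such a run on the gene strand was found at 1 or more annotated starts of 27 of the 59 ribosomal protein genes with a matched sequence (45.8%) and of 1755 of 11640 protein-coding genes tested (15.1%). It was found in 14.2% of the genes higher in axons, 17.3% of those lower and 14.2% of those not called. Outside the ribosomal protein and translation factor lists, the 1720 genes with a run had a median log2 fold difference of -0.10, and the 9885 protein-coding genes without one had 0.05. The motif was thus more frequent in the ribosomal protein list than among all genes, while the genes higher in axons held it no more often than all protein-coding genes together.

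The 78 tested genes of mitochondrial ribosomal proteins, which serve the separate translation system of mitochondria, held 65 that rose and 0 that fell (median 0.84). Their log2 fold differences ran from -0.24 in Mrpl50, which was not called, to 1.89 in Mrpl33 at 29.9, 53.6, 57.9 and 38 against 13.5, 8.66, 8.53 and 17.8 CPM, and Mrpl28, the member with the highest CPM, rose by 1.29. The respiratory chain followed the same direction. In complex I, the NADH dehydrogenase, 33 of 38 genes rose and 1 fell (median 1.01). Complexes II and III had 9 of 14 rising and 0 falling (median 0.64), complex IV, the cytochrome c oxidase, 11 of 13 and 0 (median 1.24), and ATP synthase 14 of 18 and 0 (median 1.06). Cox4i1 of complex IV was at 393, 495, 464 and 326 CPM in axons and 196, 161, 171 and 191 CPM in the somatodendritic compartment, a log2 fold difference of 1.22 ± 0.17 (SE; edgeR adjusted p = 0.000646), and no axonal library overlapped a somatodendritic one. The largest difference of each list was in Uqcr11 of complex III (1.90), Cox7c of complex IV (2.20), Atp5k of ATP synthase (1.68) and Ndufb6 of complex I (2.57), the last at 104, 762, 185 and 107 CPM in axons, where replicate 2 stood far above the rest. With that library left out, Ndufb6 was at 1.43 and Cox7c at 1.52. Other members had small or opposite differences, with -0.67 in Ndufs1, which was lower in axons, -0.12 in Sdha, 0.37 in Uqcrc1, 0.38 in Cox7a2l and -0.18 in Atp5a1, none of these except Ndufs1 passing the test. Uqcrc1 passed it without axonal replicate 2, 3 or 4 (0.38, 0.39 and 0.42), and Cox7a2l without axonal replicate 4 (0.43). On the mitochondrial chromosome, rRNA and tRNA genes were analysed, and 18 of 20 tested genes rose (median 3.20). mt-Rnr2, the large rRNA, was at 1126, 12895, 1085 and 1345 CPM in axonal and 275, 307, 434 and 471 CPM in somatodendritic libraries, so that the axonal mean rested largely on replicate 2 although all 4 libraries were higher. Its log2 fold difference was 3.47, and 1.67 without that library.

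Other steps of protein synthesis were mixed. Of 53 initiation and elongation factors, 26 rose and 5 fell (median 0.53). Eif4ebp1, an inhibitor of cap-dependent initiation, was at 44.5, 58, 154 and 96.3 CPM in axons and 4.83, 2.09, 6.07 and 4.36 CPM in the somatodendritic compartment (log2 fold difference 4.34 ± 0.48, SE; edgeR adjusted p = 0.000297). The other members that rose differed less, and included subunits of the initiation complex eIF3 and of the elongation factor eEF1. Eef1a2, the elongation factor form of mature neurons and muscle, fell (-2.37) while its counterpart Eef1a1 rose by 0.67, and the scaffold Eif4g2, the highest of the list in CPM, was 1.85-fold lower. Eif4g1, Eif4g3 and Eif4a2 were the other members called lower. Aminoacyl-tRNA synthetases, which charge tRNAs, had 2 of 20 higher and 4 lower (median -0.09), from -0.99 in Aars to 0.51 in Vars, which was called only in some fits, such as without axonal replicate 2 (0.61). Of 32 genes of the ER translocon and signal peptide processing, 21 rose and 2 fell (median 0.71), with Sec61b at 2.06, its larger partner Sec61a2 at -1.10, and Rpn1, the highest in CPM, at 0.26 and not called unless axonal replicate 2 was left out (0.38). In the proteasome 36 of 45 genes rose and 0 fell (median 0.69). The largest difference there was in the immunoproteasome subunit Psmb8 (3.31, from 0.662 ± 0.291 to 6.65 ± 3.27 CPM, mean ± SD, n = 4), while Psmd2 (-0.08) and Psmd1 (-0.23) were not called. Chaperones had 8 of 30 higher and 4 lower, V-ATPase and lysosome genes 12 of 32 higher and 10 lower, glycolysis 2 of 17 higher and 5 lower, and the citric acid cycle 4 of 17 in each direction. None of these shares stood far above the 29.2% and 26.8% of all genes, and the largest were the 37.5% and 31.2% of the lysosome list. Within these, the constitutive Hspa8 (-0.21) was not called, the synaptic chaperone Dnajc5 fell (-1.82), the lysosomal protease Ctsd rose (1.21), and the proton pump subunits Atp6v0e (3.24) and Atp6v0a1 (-2.01) went in opposite directions. The neuronal enolase Eno2 fell (-2.30) where the widely expressed Eno1 rose, Suclg2 rose (1.72) and Ogdh fell (-0.98). The medians of the synthetase, glycolysis, citric acid cycle and lysosome lists lay near 0, and their sign turned under other scalings.

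**Figure D2:**
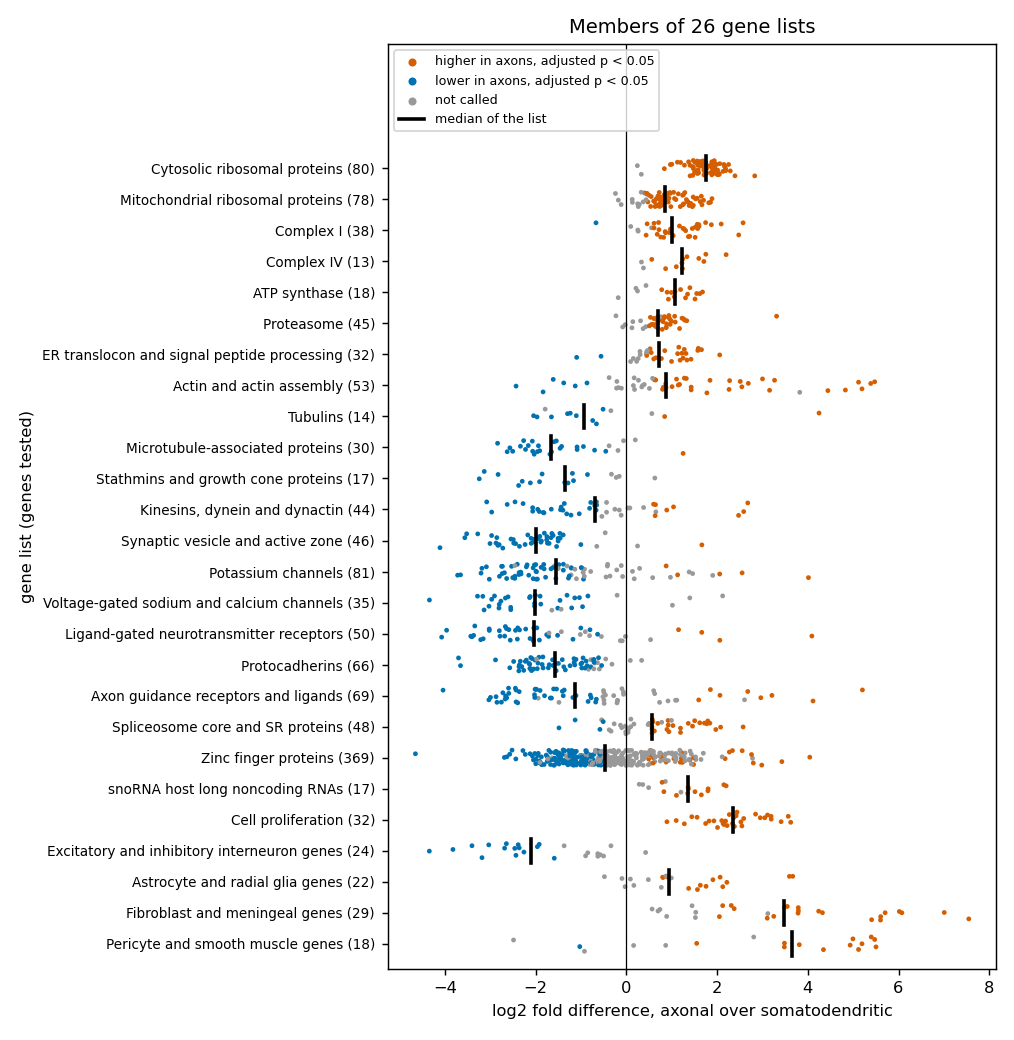
Log2 fold difference, axonal over somatodendritic, of each tested member of 26 gene lists, with orange and blue for genes called higher and lower in axons and a black bar for the median of the list. The lists of ribosomes, respiratory chain and proteasome lie mostly to the right of 0, lists of synapse, channels and microtubule proteins to the left, and the actin list spreads from below -2 to above 5.

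Actin genes and microtubule genes differed in direction. Of 53 genes of actin and its assembly, 32 rose and 6 fell (median 0.87). Their summed share of counts was 3.06% ± 1.35 (SD, n = 4) in axons and 1.25% ± 0.0818 in the somatodendritic compartment, without overlap. The profilin Pfn1, which feeds actin filament growth, was at 362, 309, 853 and 419 against 78.4, 63.8, 74.6 and 85 CPM and rose by 2.69 ± 0.33 on the log2 scale (SE; edgeR adjusted p = 0.000368). The cofilins Cfl1 (0.87) and Dstn (1.10), which sever filaments, the thymosin Tmsb4x, and the Arp2/3 subunits Arpc2 (0.83), Arpc3 (0.65) and Arpc4 (0.87), which branch them, rose as well. At the top of the list stood genes that smooth muscle uses. Tpm2 rose by 5.47, Actg2 by 5.39, Acta2 by 5.19 and Myl9 by 5.12. Acta2 was at 1854, 939.5, 9908 and 3674 CPM in axons and 36.7, 11.6, 349.5 and 49.3 CPM in the somatodendritic compartment, highest in replicate 3 of both. Its difference was 4.31 without axonal and 6.94 without somatodendritic replicate 3. Leaving out the latter gave 6.27 for Tpm2, 6.66 for Actg2 and 6.29 for Myl9, and Actg2 was at 4.71 without axonal replicate 4. Members that fell included the formin Daam1 (-2.43), the Arp2/3 subunit Actr2 (-1.84), the filament elongator Evl (-1.61) and the bundler Fscn1 (-1.38). The Arp2/3 subunits thus did not all differ in the same direction.

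Tubulins fell in 9 of 14 genes and rose in 2 (median -0.92), and their share of counts was 1.36% ± 0.109 (SD, n = 4) in axons against 2.07% ± 0.164. Tubb3, the β-tubulin that marks neurons, was at 374, 481, 125 and 379 CPM in axons and 1408, 1370.1, 1481 and 1070.2 CPM in the somatodendritic compartment, a log2 fold difference of -1.97 ± 0.36 (SE; edgeR adjusted p = 0.00184). Axonal replicate 3 was lowest and the compartments did not overlap. Tuba4a (-2.05), Tubb2a (-1.24) and Tubb2b (-1.11) fell too, and Tubb6, found in many non-neuronal cells, rose by 4.25 from 19.8 ± 8.78 to 375 ± 277 CPM (3.65 without axonal replicate 3). Microtubule-associated proteins fell in 25 of 30 genes and rose in 1 (median -1.67). Map2, the marker of dendrites, was at 229, 512, 65.9 and 198 against 1144, 1156, 964 and 969.9 CPM (-2.08 ± 0.50; edgeR adjusted p = 0.00672), and Mapt, which encodes the axonal protein tau, at 409.5, 560.5, 145 and 449 against 1156, 1182, 1127 and 1104 CPM (-1.55 ± 0.35; edgeR adjusted p = 0.00476). Both were lower in axons in every library, and Map2 was at -2.69 without axonal replicate 2. Map1b, the highest in CPM, was 3.89-fold lower, Clip2 fell most (-2.84), and Tppp3 was the member that rose (1.25).

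Neurofilament mRNAs were lower in axons, Nefl at 316, 358, 73.4 and 372 against 1116, 1308, 1576 and 847 CPM (-2.11 ± 0.46; edgeR adjusted p = 0.00385) and Nefm with the larger difference (-2.71). Of the 7 intermediate filament genes 4 fell and 1 rose, Nes, the filament of neural progenitors (2.65). Stathmins and growth cone proteins fell in 13 of 17 genes and rose in 0 (median -1.36), with L1cam, an adhesion molecule of growing axons, at -3.25, and Crmp1, the highest in CPM, at -2.12. Stmn2 (-1.86) and Gap43 (-1.36) fell, whereas Stmn1 (-0.33) and Marcks (0.63) were not called, the latter with axonal replicate 2 at 1170 and the other axonal libraries at 241 to 317 CPM and -0.19 without that library. Motor proteins fell in 24 of 44 genes and rose in 8 (median -0.69). The kinesin chains Klc2 (-3.08) and Kif5a (-2.97) fell, Kif5b (0.89), the conventional kinesin of most tissues, and the dynein light chain Dynll1 (1.04) rose, Kif1c had the largest increase among members of 5 CPM or more (2.68), and Kif1a, the highest in CPM, was not called (-0.66). Kif1a was called as lower without axonal replicate 2 (-1.13), with the replicate number as a block (-0.81, edgeR adjusted p = 0.0421) and with voom (-0.81).

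**Figure D3:**
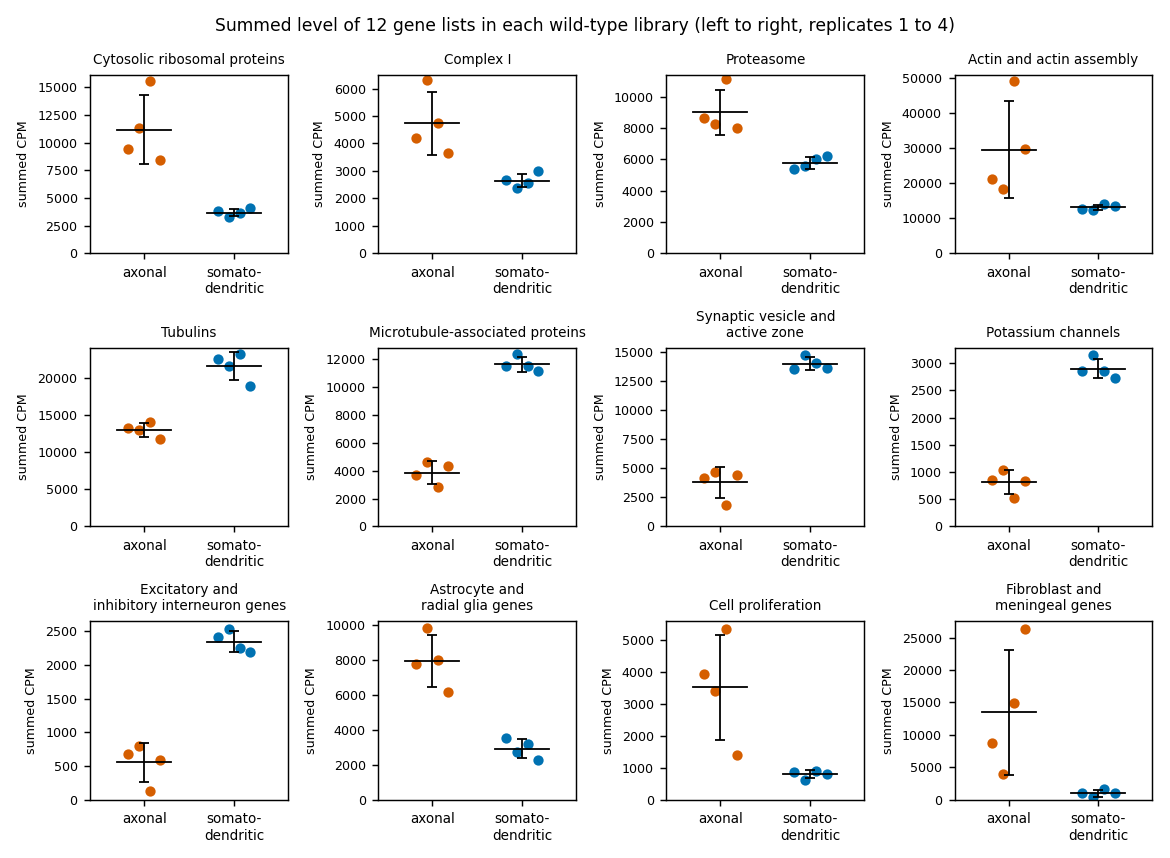
Summed CPM of 12 gene lists in each wild-type library, orange for axonal and blue for somatodendritic, with a line for the mean and bars for the SD (n = 4). The 4 axonal libraries lie above the somatodendritic ones in the ribosomal, complex I, proteasome, actin, glial, proliferation and fibroblast lists and below them in the other 5.

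Genes of the synapse were lower in axons almost throughout. Of 46 genes of the synaptic vesicle and active zone, 42 fell, 1 rose and 31 fell by more than 2-fold, against 26.8% and 10.4% of all genes in those calls, with a median of -2.0. They took 0.397% ± 0.145 (SD, n = 4) of axonal and 1.34% ± 0.0245 of somatodendritic counts. The calcium sensor Syt2 fell from 178, 169, 161 and 103 to 12, 12, 2.34 and 8.96 CPM (-4.11 ± 0.48; edgeR adjusted p = 0.000342), the largest difference of the list. Each axonal library was under each somatodendritic one, and axonal replicate 3 was lowest. The fusion proteins Snap25 (-1.95), Syt1 (-3.01) and the priming factor Unc13a (-3.52) fell likewise, Snap25 further (-2.54) without axonal replicate 2. Sypl, a synaptophysin relative present outside neurons, was the member that rose (1.66).

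Ion channels and transmitter receptors showed the same direction. Potassium channels fell in 49 of 81 tested genes and rose in 5 (median -1.56, 15 more not tested), voltage-gated sodium and calcium channels in 29 of 35 and 0 (median -2.03, 6 not tested), and ligand-gated receptors in 36 of 50 and 4 (median -2.05, 17 not tested). Together these took 0.238% ± 0.0766 (SD, n = 4) of axonal and 0.864% ± 0.04 of somatodendritic counts. Cacna2d2, a calcium channel subunit, was at 5.47, 9.56, 1.84 and 7.42 CPM in axons and 119.7, 148, 114 and 114 CPM in the somatodendritic compartment, 20.3-fold lower (-4.34 ± 0.45, SE; edgeR adjusted p = 0.000252). The leak channel Kcnk9 (-3.66), the modifier subunit Kcns2 (-3.72), the sodium channel subunit Scn3b (-3.14), the AMPA receptor subunit Gria2 (-2.03) and the nicotinic subunit Chrna7 (-4.07) fell. Members in the opposite direction were Chrnb1 of the muscle acetylcholine receptor (4.09) and Kcnmb1 (4.01), a subunit of smooth muscle. Single libraries moved Chrna7 to -5.01 (without axonal replicate 1), Kcns2 to -4.37 (without axonal replicate 4) and Kcnmb1 to 4.68 (without somatodendritic replicate 3).

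The 12 protein-coding genes of at least 50 CPM with the largest decreases in axons were Slc6a7, Cacna2d2, Gjd2, Syt2, Slc12a5, Gabra3, Slc4a10, Slc6a5, Kndc1, Disp2, Apba1 and Eml2. They were 12.6- to 21.6-fold lower and include transporters of proline (Slc6a7), chloride (Slc12a5), bicarbonate (Slc4a10) and glycine (Slc6a5), the neuronal gap junction protein Gjd2 and the GABA receptor subunit Gabra3. Gjd2 was at a log2 fold difference of -4.32 and at -5.07 without axonal replicate 2, and Gabra3 at -3.97 and at -4.68 without axonal replicate 4. Slc12a5 (KCC2, chr2:164802766-164841651 in GRCm39), which keeps chloride low in mature neurons, was at 36.6, 30.6, 8.39 and 50.5 against 531, 602, 525 and 488 CPM (-4.09 ± 0.48, SE; edgeR adjusted p = 0.000337). Eml2, a microtubule-binding protein, was at 4, 6.68, 5.66 and 12.7 against 93.4, 93.2, 87.1 and 93.5 CPM (-3.66 ± 0.34; edgeR adjusted p = 0.00021), and its somatodendritic libraries hardly differed. For both genes the compartments were far apart relative to the spread within each.

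Adhesion and guidance genes fell as well. Neurexins, neuroligins and LRRTM proteins fell in 19 of 22 genes and rose in 0 (median -1.96), with Nrxn2 at -3.48 and Cadm1 at -0.27, not called unless axonal replicate 2 was left out (-0.58). Protocadherins fell in 55 of 66 and rose in 0 (median -1.58), from -3.70 in Pcdhb2 to 0.34 in Pcdhb22, which was not called, and the highest in CPM, Pcdh9, fell (-1.70). Clustered protocadherin genes share their constant exons and similar sequences, so single members are uncertain. Guidance receptors and ligands fell in 39 of 69 genes and rose in 8 (median -1.12). Sema7a fell most, from 30, 28.9, 29.5 and 22.7 to 1.91, 1.39, 1.22 and 2.21 CPM, Epha2 rose by 5.20 (6.65 without somatodendritic replicate 3), and Plxnb2, the highest in CPM, was not called (0.60) but rose without axonal replicate 2 (0.82). Of 54 Rab GTPases, which direct vesicle traffic, 14 fell and 12 rose (median -0.35), shares no larger than those of all genes. Rab6b, both the member with the highest CPM and the one that fell most, was at -2.43, and Rab29 at 3.46.

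Genes of transcription and splicing rose more often than they fell. RNA polymerase II and general transcription factors rose in 22 of 40 genes and fell in 4 (median 0.63), and spliceosome and SR proteins rose in 24 of 48 and fell in 4 (median 0.57). The spliceosome core protein Snrpb was at 328, 322, 593 and 281 against 104, 95.7, 103 and 85.9 CPM (1.97 ± 0.25; edgeR adjusted p = 0.000415), Snrpe had the largest increase (2.57, 1.58 without axonal replicate 2) and the large helicase Snrnp200 fell (-1.49). Polr2k rose (2.67), with axonal replicate 2 far above the others and 1.42 without it, Taf15 fell (-1.42) and Polr2m was not called (-0.15). In the hnRNP family 11 of 28 rose and 4 fell (median 0.28), where 29.2% of all genes rose and 26.8% fell. Hnrnpr itself was at 164, 424, 145 and 120.3 CPM in axons and 176, 203, 188 and 238 CPM in the somatodendritic compartment and was not called (0.09 ± 0.37; edgeR adjusted p = 0.859). Axonal replicate 2 stood above all other libraries, and without it the gene was lower in axons (-0.49, edgeR adjusted p = 0.0348). With the replicate number as a block it was at -0.11 and not called. Hnrnpk, the hnRNP with the highest CPM, rose by 0.52 (edgeR adjusted p = 0.0333) and lost the call with each somatodendritic replicate 1, 2 or 3, or axonal replicate 1 or 2, left out (adjusted p 0.0503 to 0.0951) without the filter on expression (adjusted p = 0.0615) and with the replicate number as a block (adjusted p = 0.074). The splicing repressor Ptbp1 rose (2.42, from 44.1 ± 18.6 to 236 ± 107 CPM) and its neuronal paralog Ptbp2 fell (-1.35). Ptbp1 is used by non-neuronal cells and progenitors. RNA-binding proteins known from axons rose in 8 of 29 genes and fell in 10 (median -0.25), near the shares of all genes, with Igf2bp1 at 3.38 (2.67 without axonal replicate 4), the neuronal Elavl2 at -2.59 and Ybx1, the highest in CPM, at 0.35, not called.

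Zinc finger protein genes fell in 142 of 369 and rose in 26 (median -0.47), from -2.69 in Zfp641 to 4.04 in Zfp36 (3.04 without axonal replicate 4), an immediate early regulator of mRNA decay, and the highest in CPM, Zfp706, was not called (-0.47) but fell without axonal replicate 2 (-0.63). Hox genes, which mark position along the spinal cord, rose in 8 of 32 and fell in 7, fewer in both directions than the 29.2% and 26.8% of all genes, with Hoxa2 at 2.48, Hoxb9 at -0.83 and Hoxb8 at -3.33. In a list of long noncoding RNAs, most of them known from the nucleus, 3 of 18 rose and 8 fell, where 29.2% of all genes rose and 26.8% fell. Malat1 rose and was at 359, 2133, 922 and 950 CPM in axons and 166, 214, 279 and 236 CPM in the somatodendritic compartment (2.29 ± 0.47; edgeR adjusted p = 0.00298), highest in axonal replicate 2, and Neat1 rose by 2.14 (1.50 without axonal replicate 3). The maternally expressed Meg3 (-1.65) and Rian (-2.77) fell, as did Norad (-2.01), a member that acts in the cytoplasm. Host genes of small nucleolar RNAs, whose spliced RNA holds little coding sequence, rose in 12 of 17 and fell in 0 (median 1.35), Gas5 at 1.80, Snhg15 at 2.15 and Snhg17 at 0.79 (edgeR adjusted p = 0.0465), which lost its call when any single library but axonal replicate 1 was left out (edgeR adjusted p 0.0641 to 0.116) without the filter on expression (edgeR adjusted p = 0.0667) and with the replicate number as a block (edgeR adjusted p = 0.0726).

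Among noncoding genes of at least 10 CPM, the largest increases were in Gm15270 (5.36), Gm17501 (5.35), Gm7665 (5.30), Gm5864 (4.84) and Gm28863 (4.83). With somatodendritic replicate 3 left out, Gm15270 was at 6.07, Gm17501 at 6.15 and Gm5864 at 5.57, and with axonal replicate 4 left out, Gm15270 was at 4.56 and Gm28863 at 4.02. The largest decreases were in Gm39463 (-4.20), Gm46178 (-3.78), Zim3 (-3.61), Gm15564 (-3.49) and Gm33294 (-3.26), with Gm39463 at -4.79 without axonal replicate 1. Gm15270 overlaps Ccn2 on the other strand, Gm28863 overlaps Adm, Zim3 Usp29, Gm15564 Parp9 and Gm33294 Spock1. The library kit does not mark strand, so reads of these pairs cannot be told apart. Rian and Rtl1, Kcnmb1 and Kcnip1, Ptbp1 and Plppr3, and Zfp36 and Paf1 overlap in the same way. As a class, 402 of 2395 long noncoding RNAs (16.8%) rose and 573 (23.9%) fell, both under the 29.2% and 26.8% of all genes. Their share of counts was 1.2% ± 0.222 (SD, n = 4) in axons against 1.36% ± 0.0476. Axonal replicate 2 was at 1.53%, above every somatodendritic library, and the other axonal libraries were below them. Of 1169 pseudogenes 630 (53.9%) rose, with a median of 1.00, and reads of multicopy families are divided among them and their parent genes.

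Among the 12 protein-coding genes of at least 50 CPM with the largest increases in axons were Mgp, Cryab, Gprc5a, Ccn1, S100a6, Ecrg4, Hspb1, Anxa1, Plaur and Angpt2, 56.3- to 187-fold higher. Several are known from fibroblasts, vessel walls or injured tissue, such as the matrix protein Mgp, the matricellular Ccn1 and the vessel ligand Angpt2, and Cryab and Hspb1 are small heat shock proteins. Mgp (chr6:136849433-136852821 in GRCm39) was at 281, 56.8, 26.1 and 381 CPM in axons and 0.775, 0.0444, 0.246 and 2.97 CPM in the somatodendritic compartment (7.55 ± 1.27, SE; edgeR adjusted p = 0.00128). Ccn1 was at 728, 441, 1676 and 3249 against 9.96, 3.15, 55 and 22.4 CPM (6.07 ± 1.03; edgeR adjusted p = 0.0013). Both varied widely between axonal libraries, with replicate 4 highest, and every axonal library lay above every somatodendritic one. Single libraries set the size of several of these differences. Gprc5a rested largely on single libraries, with a log2 fold difference of 6.21, 3.98 without axonal replicate 3 and 9.08 without somatodendritic replicate 3. Leaving out axonal replicate 4 lowered Mgp to 6.93, Ccn1 to 5.39, Anxa1 from 5.95 to 5.21, Plaur from 5.83 to 5.12 and Angpt2 from 5.82 to 5.01. Leaving out somatodendritic replicate 3 raised Ccn1 to 6.99, Cryab from 6.32 to 7.54 and Ecrg4 from 6.01 to 7.93, and without somatodendritic replicate 4 Mgp was at 8.91. All of these kept their call. Sparc, a collagen-binding matrix protein, was at 2118, 1611, 5057 and 3972 against 159.9, 99.5, 257 and 121 CPM (4.32 ± 0.47; edgeR adjusted p = 0.000288).

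The lists of cell types summarise this. The median log2 fold difference was 3.48 over 29 fibroblast and meningeal genes and 3.65 over 18 pericyte and smooth muscle genes, of which 12 rose and 1, Notch3 (-1.03), fell, the last not called by voom with weights per compartment (adjusted p = 0.0858). The fibroblast median was 2.77 without axonal replicate 4, and the smooth muscle median 4.4 without somatodendritic replicate 3. Cnn1 rose most among the smooth muscle genes (5.50, 4.77 without axonal and 6.89 without somatodendritic replicate 3), and Col3a1 of the fibroblast list was not called (0.57, -0.57 without axonal replicate 4). Together these 2 lists took 2.06% ± 1.3 (SD, n = 4) of axonal counts, 0.619% in replicate 2 and 3.37% in replicate 4, against 0.119% ± 0.0681 of somatodendritic counts. Radial glia and astrocyte genes rose in 13 of 22 and fell in 0 (median 0.95), Hes1 by 3.67 (4.34 without somatodendritic replicate 3) and Fabp7 from 482, 332, 456 and 412 to 1928, 2786, 1644 and 977 CPM, and Slc4a4 was not called (-0.49) but fell without axonal replicate 2 (-0.89). All 32 proliferation genes rose (median 2.36), from 0.89 in Mcm6 to 3.62 in Birc5. Rrm2, a nucleotide reductase of dividing cells, was at 255, 262, 491 and 93.9 CPM in axons and 40.7, 32.9, 57.8 and 52.1 CPM in the somatodendritic compartment, lowest among axons in replicate 4. Oligodendroglial and Schwann cell genes rose in 4 of 17 and fell in 1, shares under the 29.2% and 26.8% of all genes, Olig1 by 1.57 and S100a4 by 6.30, and Gpr17 was not called (-1.50). Axonal replicate 1 stood above the other axonal libraries in Gpr17, which was called without it (-2.70, edgeR adjusted p = 0.0225) and with the replicate number as a block (edgeR adjusted p = 0.0047). Microglial genes rose in 2 of 18, again under the share of all genes, Tmem119 most (3.75), with Csf1r not called (-0.20, -1.50 without axonal replicate 1), and of 6 tested endothelial and blood genes 3 rose, Flt1 most (4.73, 3.44 without axonal replicate 4), and 1 fell, with Egfl7 not called (0.64).

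Neuronal identity genes went the other way. Of 19 cholinergic motoneuron genes 10 fell and 2 rose (median -2.03), with Ache at -2.03, Slc18a3 at -3.85 and Foxp1, which other cells also use, at 1.32. The last lost its call without somatodendritic replicate 2 (edgeR adjusted p = 0.0575) or 4 (edgeR adjusted p = 0.0543). Genes of spinal interneurons fell in 15 of 24 and rose in 0 (median -2.11). Slc32a1, the vesicular transporter of GABA and glycine, was at 2.53, 3.69, 0.724 and 2.55 CPM in axons and 46.2, 55.7, 52.6 and 39.4 CPM in the somatodendritic compartment (-4.35 ± 0.44; edgeR adjusted p = 0.000237), and Sst was not called (0.42) but rose without axonal replicate 3 (0.81). For 31 genes tested, every axonal library had at most 3 counts. Calcr, the calcitonin receptor, had 1, 0, 0 and 3 axonal counts and 150, 49, 78 and 42 somatodendritic counts. For 30 genes every somatodendritic library had at most 3 counts. Hspb7, a small heat shock protein, had 0, 0, 0 and 3 counts there and 89, 28, 93 and 436 in axons, and the transcription factor gene Gata6 had 3, 3, 2 and 3 and 28, 101, 46 and 312. Hspb2, of the same family as Hspb7, had 0 counts in every somatodendritic library and 38, 20, 80 and 42 in axons, at least 11.9-fold higher against a floor of 3 counts per library, but it overlaps the far more abundant Cryab on the other strand, and reads of this pair cannot be told apart. Floors cover counting error only. At 1 CPM or more in all 4 libraries, 14536 genes were detected in axons and 14930 in the somatodendritic compartment, 13651 of them in both.

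**Figure D4:**
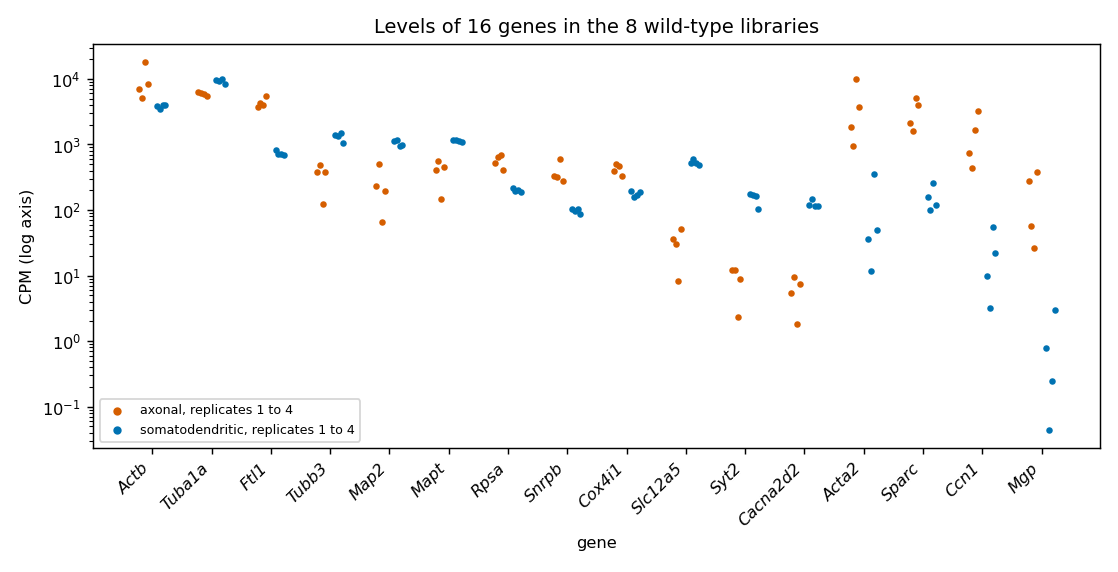
CPM, on a log axis, of 16 genes named in the text in the 4 axonal (orange) and 4 somatodendritic (blue) wild-type libraries, replicates 1 to 4 from left to right. The compartments do not overlap in any of the 16 genes, and replicates spread most in axons and in genes of smooth muscle and matrix such as Acta2 and Mgp.

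Transcripts with a known localisation were mixed for axons and mostly lower for dendrites. Of 26 mRNAs reported in axons by earlier work, 10 rose and 6 fell (median 0.34), shares of which the first lies above the 29.2% of all genes and the second near 26.8%. Vim rose most (3.59, from 142 ± 65.9 to 1715 ± 726 CPM) and Nrn1 fell most (-2.19). Of 19 mRNAs reported in dendrites 16 fell and 1, Bdnf (2.14), rose (median -1.84), where 26.8% of all genes fell. Grin1, the obligate NMDA receptor subunit, was at 26.4, 20.7, 7.01 and 27.2 against 161, 197, 156 and 148 CPM (-3.02 ± 0.39; edgeR adjusted p = 0.000441). The synaptic vesicle (median -2.0) and ligand-gated receptor (median -2.05) lists fell as far, so the decrease was not particular to mRNAs of dendrites.

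Metallothioneins and targets of the antioxidant regulator NRF2 rose in 21 of 24 genes and fell in 0 (median 1.65). Mt2 was at 66.7, 154, 107 and 67.5 CPM in axons and 6.05, 4.22, 3.48 and 7.14 CPM in the somatodendritic compartment (4.24 ± 0.37, SE; edgeR adjusted p = 0.000191), the haem oxygenase Hmox1 rose by 2.99 (2.07 without axonal replicate 4), and Srxn1 was not called (-0.13). Immediate early and injury genes rose in 13 of 26 and fell in 1 (median 1.08), Gadd45g by 4.34 and Dusp1 by 2.54, while Ecel1, an injury gene of neurons, fell (-2.32). Targets of the integrated stress response rose in 10 of 21 and fell in 5 (median 0.58), the latter near the share of all genes, Phgdh, of serine synthesis, by 1.83 and Nupr1 by 4.54 (3.13 without axonal and 5.19 without somatodendritic replicate 3), and Ddit4 fell (-3.16). Sterol and fatty acid synthesis rose in 3 of 29 and fell in 6, shares under those of all genes (29.2% and 26.8%), with Fasn at -2.15, Scd2 at -0.99 and Idi1 at 0.82, not called, and at 0.18 without axonal replicate 2, which stood far above the others.

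Genes linked to amyotrophic lateral sclerosis, a disease of motoneurons, fell in 14 of 26 and rose in 8 (median -0.90). Of all genes 26.8% fell and 29.2% rose, so the share that rose here was near that of all genes. Unc13a fell most (-3.52), Kif5a, Tuba4a and Stmn2 were lower too, and the actin gene Pfn1 was higher. In the SMN complex, which loads spliceosomal RNAs, 4 of 9 rose and 1 fell, Gemin8 at 1.66, Gemin5 at -0.86 and Strap at 0.15, not called. Around 7SK, the noncoding RNA that holds the kinase P-TEFb inactive, 3 of 8 rose and 1 fell, Hexim1 (1.29) and Hexim2 (-1.49) in opposite directions and Cdk9 (0.23) not called. Genes of O-GlcNAc cycling and the hexosamine pathway fell in 3 of 8 and rose in 2, Gfpt1 at -2.52, Oga at -1.59 and Uap1l1 at 1.54, and the sign of this list's median turned under other scalings. With 8 or 9 genes each, the counts of these 3 lists lie near what the 29.2% higher and 26.8% lower among all genes would give, and nothing about the lists is read from them.

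Protein-coding genes with a short combined exon length were higher in axons more often than those with a long one. This length covers all exons of a gene and can exceed that of its mRNA. Of 630 protein-coding genes with less than 1 kb of combined exon length, 78.9% rose and 2.86% fell (median log2 fold difference 1.43). From 1 to 2 kb the shares were 54.2% and 8.31%, from 2 to 4 kb 31.2% and 21.8%, and from 4 to 8 kb 18.6% and 38.6%. Above 8 kb, 12.1% rose and 48.7% fell (median -0.67). Genes under 1 kb that were in none of the lists of protein synthesis and energy showed nearly the same shares, 74.4% and 3.55% of 507. Across 14734 protein-coding genes Spearman's rho between exon length and log2 fold difference was -0.384, and within lists it was -0.503 over 78 mitochondrial ribosomal genes, -0.593 over 38 complex I genes, -0.613 over 45 proteasome genes, -0.247 over 46 synaptic genes and -0.55 over 29 fibroblast genes. These are descriptions across genes of the same libraries. The median exon length was 827 bases in the ribosomal protein list, 922 in complex I, 1337 in the proteasome and 5602 in the synaptic list, so these lists also differed in length. Other lists did not follow this order, since the fibroblast (3976 bases), astrocyte and radial glia (4470.5) and proliferation (3472) lists rose in most members, while the tubulin list, of which 9 of 14 genes fell, had a median of 1938 bases. The compartments differed in PCR cycles and input as well, and the part of these in the relation with length cannot be told apart from the compartment.

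**Figure D5:**
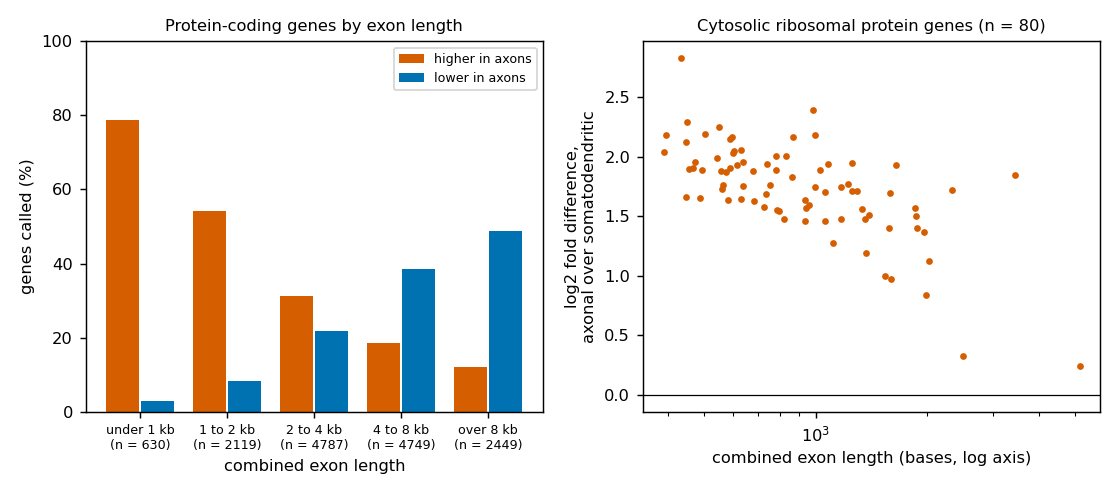
Left, share of protein-coding genes called higher (orange) or lower (blue) in axons by combined exon length, with the number of genes under each pair of bars. Right, log2 fold difference of the 80 cytosolic ribosomal protein genes against exon length on a log axis, where the 2 genes not called lie lowest, at 0.24 and 0.33.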

How the data were processed

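RNA of wild-type (Hnrnpr +/+) and Hnrnpr-/- motoneurons was measured in 8 axonal and 8 somatodendritic libraries, 4 per genotype and compartment, made with a SMART-Seq kit that does not mark strand. The authors deposited expected counts, that is fractional read counts per gene that were not normalized. They trimmed reads with Cutadapt, aligned them with STAR 2.7.2b to RefSeq GRCm39 and counted exons with featureCounts 1.6.4 on the reverse strand, dividing reads that mapped to several places or genes as fractions. Genes that overlap on opposite strands can therefore not be told apart, and families with near-identical copies are uncertain. The reverse-strand setting on such a kit can also leave part of the reads uncounted.

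The deposited counts were rounded to whole numbers. Genes were kept with filterByExpr over the 8 wild-type libraries (18679 of 46320), scaled by TMM and tested with edgeR 4.0.16 (quasi-likelihood, R 4.3.3), with Benjamini-Hochberg adjustment over all genes and a threshold of 0.05. glmTreat tested against a 2-fold difference. Fold differences are axonal over somatodendritic on the log2 scale with their SE, CPM values use the TMM factors, and the floor for an unseen gene is 3 counts. Libraries held 22024923 to 34864151 counts, and no 2 libraries were identical. Shares of counts per gene list are given without a test, since the lists were chosen with results known. The test was checked on simulated counts. Start sequences came from a RefSeq table of GRCm38.p6, apart from the GRCm39 coordinates of the files. They were matched by gene identifier, and those shown were picked by symbol. Alternatives were other scalings, filters, DESeq2 1.42.0, voom with limma 3.58.1, a replicate block, all 16 libraries in 1 fit and each library left out.

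The gene lists and their members were chosen with earlier results of these data known, and so was the rule for named genes. It takes the 12 protein-coding genes with the largest difference in each direction (at least 50 CPM, no overlap), the 15 axonal and 10 somatodendritic genes highest per exon length, for each list its highest and lowest fold difference (at least 5 CPM) and its highest CPM, 5 noncoding genes per direction (at least 10 CPM), the compartment marker genes and Hnrnpr. Members of lists of up to 30 genes could be named too. Other genes were named as label checks or examples after their values were seen. The 13 mitochondrially encoded protein genes were not analysed here. Some genes that the rule names are not reported here.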

Additional observations from a re-analysis of the deposited data

Results flagged for a closer look

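Each set of 4 libraries of 1 compartment was checked for a library whose gap to its nearest neighbour took more than 0.829 of the range of the 4 values (Dixon's limit for 4 samples). This was done for the shares of counts and for the named genes, and 43 of 486 sets held such a library, where chance gives about 1 in 20. Axonal replicate 2 had 1.88% of its counts on mitochondrial rRNA and tRNA against 0.148% to 0.201% in the others. Axonal replicate 3 had 0.183% on synaptic vesicle and active zone genes against 0.449% to 0.499%.

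Axonal replicate 1 stood above the other 3 axonal libraries in Csf1r at 28.1 CPM (others 1.71 to 5.59) and Gpr17 at 75.8 CPM (others 5.28 to 16.4). Axonal replicate 1 stood below the other 3 axonal libraries in Snhg17 at 6.18 CPM (others 14 to 15.1). Axonal replicate 2 stood above the other 3 axonal libraries in Calm2 at 1620 CPM (others 902 to 930), Hnrnpr at 424 CPM (others 120 to 164), Idi1 at 473 CPM (others 122 to 174), Marcks at 1170 CPM (others 241 to 317), Ndufb6 at 762 CPM (others 104 to 185), Polr2k at 57.6 CPM (others 6.9 to 12.4) and mt-Rnr2 at 12900 CPM (others 1080 to 1340). Axonal replicate 2 stood below the other 3 axonal libraries in Psmd2 at 399 CPM (others 640 to 682) and Rpn1 at 335 CPM (others 490 to 506). Axonal replicate 3 stood above the other 3 axonal libraries in Cfl1 at 1150 CPM (others 657 to 719), Chat at 0.0658 CPM (others 0), Dynll1 at 500 CPM (others 275 to 312), Gprc5a at 228 CPM (others 7.99 to 17.5), Neat1 at 65 CPM (others 15.5 to 22.7), Ppia at 1510 CPM (others 849 to 935), Snrpb at 593 CPM (others 281 to 328) and Strap at 247 CPM (others 204 to 209). Axonal replicate 3 stood below the other 3 axonal libraries in Ache at 16.1 CPM (others 70.7 to 81.6), Eno2 at 23.5 CPM (others 83 to 90.6), Gria2 at 41.4 CPM (others 139 to 144) and Unc13a at 6.58 CPM (others 14.4 to 15.7). Axonal replicate 4 stood above the other 3 axonal libraries in Igf2bp1 at 30.8 CPM (others 6.79 to 10.8). Somatodendritic replicate 2 stood below the other 3 somatodendritic libraries in Actb at 3440 CPM (others 3920 to 4000) and Col3a1 at 27.4 CPM (others 196 to 229). Somatodendritic replicate 3 stood above the other 3 somatodendritic libraries in Acta2 at 350 CPM (others 11.6 to 49.3), Actg2 at 14.1 CPM (others 1.02 to 2.59), Cnn1 at 9.92 CPM (others 0.266 to 1.82), Ecrg4 at 5 CPM (others 0.0927 to 0.805), Epha2 at 3.57 CPM (others 0.4 to 0.477), Gm15270 at 4.34 CPM (others 1.07 to 1.3) and Gprc5a at 3.28 CPM (others 0.0895 to 0.139). Somatodendritic replicate 3 stood below the other 3 somatodendritic libraries in Eml2 at 87.1 CPM (others 93.2 to 93.5) and Scn3b at 261 CPM (others 314 to 324). Somatodendritic replicate 4 stood above the other 3 somatodendritic libraries in Hspb7 at 0.139 CPM (others 0 to 0), Snhg15 at 3.62 CPM (others 1.86 to 2.13) and Stmn1 at 1100 CPM (others 788 to 809). Somatodendritic replicate 4 stood below the other 3 somatodendritic libraries in Phgdh at 114 CPM (others 184 to 188) and Sema7a at 22.7 CPM (others 28.9 to 30).

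The causes of these values were not tested.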

How the results depend on the processing

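The counts of genes higher and lower in axons were run under 12 alternatives. The 2-fold count was not run under DESeq2 or voom, and the Hnrnpr-/- count only under the replicate block, DESeq2 and another scaling. Each count was also run in 8 fits that each left out 1 library. All kept within 1.5 times their main value in the fits run, except genes beyond a 2-fold difference. These moved from 4197 to 2657 without somatodendritic replicate 2 (range over libraries left out 2657 to 5060). Over the libraries left out, genes higher in axons ranged from 4429 to 5865, genes lower from 4271 to 5663 and Hnrnpr-/- calls from 8225 to 11810. Over the other alternatives the ranges were 4498 to 6052, 4073 to 5639 and 10380 to 11911, and 3374 to 4392 for the 2-fold test. The differences in share of counts kept their direction with each library left out and with other counts. Library totals without TMM factors raised the median of all genes by 0.126 and the share of calls that were higher from 52.2% to 57.9%. Voom with weights per compartment lowered that median by 0.1 and gave 49.3%.

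Of 232 named genes, 195 were called, and 191 of these kept the call under every alternative run. The 4 that lost it under at least 1 were Foxp1, Hnrnpk, Notch3 and Snhg17. Uqcrc1, not called in the main test, was called under 10 alternatives. Genes that were not called in the main test changed sign in a few fits, with the cause not tested. Hnrnpr was at -0.091 with voom, at -0.11 with the replicate block and from -0.49 to 0.28 with 1 library left out. With 1 library left out, Col3a1 ranged from -0.57 to 0.93, Csf1r from -1.50 to 0.20, Marcks from -0.19 to 0.85, Psmd2 from -0.14 to 0.065 and Sst from -0.017 to 0.81. With library totals, Psmd2 was at 0.042 and Sdha at 0.0077.

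Same-numbered axonal and somatodendritic libraries had correlations of their deviations of 0.257, 0.269, 0.298 and 0.0821. Each library correlated best with its own number, but the last was under 0.1, and the main test has no block. With the replicate block the number of genes higher in axons, wild type, was 4913 and that of genes lower in axons, wild type, was 4989. Hnrnpk (edgeR adjusted p = 0.074) and Snhg17 (edgeR adjusted p = 0.0726) were not called with the block, while Gpr17 and Kif1a were, and libraries of the same number may share a culture. A gene near 3 counts cannot be compared at this depth.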

Other observations

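Some cytoskeletal genes were also set against the lists of neuronal genes that fell in axons, a comparison chosen after the values were seen. The level of each gene was divided by the summed level of 272 synaptic, channel, receptor and adhesion genes of neurons and given in percent. That sum was 3500 to 8855 CPM in axonal and 25057 to 27365 CPM in somatodendritic libraries, so any gene that fell less than it has a ratio above 1 by construction. The ratio does not measure neuronal RNA, and among 98 genes of at least 50 CPM in the somatodendritic compartment the progenitor gene Nes had the highest (29.6). Dynll1, a light chain of dynein, was at 6.38% ± 5.29 (SD, n = 4) of the sum in axons and 0.659% ± 0.0959 in the somatodendritic compartment, a ratio of 9.68, or 5.68 without axonal replicate 3. Kif5b (ratio 7.93), Stmn1 (3.35), Tuba1a (2.7) and Gap43 (1.41) also lay above the somatodendritic libraries in every axonal one, although the share of Tuba1a and Gap43 in all counts was lower in axons. Mapt (1.23), Map1b (1.03) and Stmn2 (0.98) overlapped between the compartments. Nefm (0.57), Kif5a (0.44) and L1cam (0.37) stayed below. The sum was lowest in axonal replicate 3, at 3500 CPM, and the ratios of that library were the highest for Dynll1, Kif5b, Stmn1 and Tuba1a. Without that library, Mapt no longer overlapped and lay above. No test was made of these ratios.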
